A study of Mus musculus with 22 samples.

Results

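E4f1, Taf13, Bag6 and Prrc2a are 4 mouse genes that were picked out of 22208 annotated protein-coding genes. The reason was that peaks of RNA polymerase II (PolII) at or beside them changed place in lists ordered by fold enrichment. Such a place depends on the local background as well as on the PolII signal. They were chosen by the change in fold-enrichment place between early-G1 and late-G1 of control cells. The rule took each gene by its symbol in the GENCODE vM1 annotation of the mm9 genome, with every PolII peak within 5 kb of the gene in 18 peak lists, and its wording has E4f1 and Taf13 gaining place and Bag6 and Prrc2a losing it. Over all lists, 169903 merged regions were found, of which 23 lay in the windows of the 4 genes and 5 are described in depth. These are the 4 regions over the transcription start sites (TSSs) and the region over the gene ends that Bag6 and Prrc2a share. The working name of the set speaks of promoters, and the data go against it for 2 of the 4 genes. The region that fell in place was the one at the gene ends of Bag6 and Prrc2a, which holds no annotated TSS, while neither of their promoters lost a place comparable to it.

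All libraries came from G1E-ER4, a single engineered mouse erythroid precursor line derived from cells that lack functional GATA1. According to the reporting summary, the line can be brought to terminal erythroid differentiation. The study describes no such induction for these libraries. Both CTCF alleles carry an auxin-inducible degron fused to mCherry (AID-mCherry), and the cells express OsTiR, the plant receptor through which auxin triggers degradation, so these alterations are shared by every group. Cells were arrested in prometaphase with nocodazole at 200 ng/ml, were left without auxin (control) or given auxin to deplete CTCF, and were sorted by flow cytometry either in prometaphase or 60, 120 and 240 min after release (early-, mid- and late-G1). PolII ChIP-seq, which sequences the DNA bound by the polymerase, gave 2 control and 2 auxin libraries at each stage but mid-G1, which has 3 of each. A further 4 samples are input chromatin, 1 per stage, without a peak list. By the sample titles, the late-G1 control libraries are numbered 2 and 3 and the auxin ones 1 and 2. The reporting summary of the study names its late-G1 raw reads in that way. It names the late-G1 peak lists otherwise, as control replicates 1, 2 and 3 and auxin replicate 2. The titles were followed here, so the condition of late-G1 auxin replicate 1 rests on them. The design text calls the replicates biological without naming cultures or days, so p-values measure the spread between these libraries, part of which may be technical.

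Before transcription, PolII is assembled at a promoter with general factors, among them TFIID. In many genes it then pauses a short way past the start, and at the other end of a gene it slows and dwells beyond the polyadenylation site before it leaves the template. Most of it is displaced from chromatin in mitosis and returns as cells enter G1. Taf13 encodes a histone-fold subunit of TFIID. E4f1 encodes a zinc-finger transcription factor and ubiquitin ligase with roles in pyruvate metabolism and checkpoint control, and Bag6 encodes a chaperone that guards tail-anchored membrane proteins before their insertion. Prrc2a encodes a large proline-rich RNA-binding protein. Bag6 and Prrc2a lie side by side in the class III part of the major histocompatibility complex and point towards each other.

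In mm9 coordinates, E4f1 (ENSMUSG00000024137.8) lies at chr17:24580737-24592256 on the minus strand and Taf13 (ENSMUSG00000048100.7) at chr3:108374616-108386140 on the plus strand. Bag6 (ENSMUSG00000024392.9) lies at chr17:35272123-35284265 on the plus strand and Prrc2a (ENSMUSG00000024393.6) at chr17:35286021-35301842 on the minus strand. The ends of Bag6 and Prrc2a are 1755 bp apart and their TSSs 29719 bp apart. The TSS regions spanned chr17:24591147-24593532 at E4f1, chr3:108374186-108375896 at Taf13, chr17:35265971-35274308 at Bag6 and chr17:35299310-35302642 at Prrc2a. The Bag6 region also holds the TSS of Apom and the Prrc2a region those of SNORA38 and Gm17705, a small nucleolar RNA and a long noncoding RNA, so signal there cannot be given to a single gene. The region of the gene ends spanned chr17:35281139-35287925, or 6787 bp.

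The promoter windows are shown because the TSS regions are named for them. They come from a RefSeq table built on GRCm38.p6, run from 250 bases before to 50 after the RefSeq TSS, and each of the 4 was found at a single place of the mm9 genome, at chr17:24592288-24592587 (minus strand) for E4f1, chr3:108374367-108374666 (plus) for Taf13, chr17:35271908-35272207 (plus) for Bag6 and chr17:35301773-35302072 (minus) for Prrc2a. Capitals mark matches, on either strand, to TATAAA (the TATA box), CCAAT (a site of the factor NF-Y), CGGAAG (the core of ETS factors), TGACGT (the core of CREB and ATF factors), GGGCGG (the GC box of Sp factors) and CACGTG (an E-box).
Taf13 promoter: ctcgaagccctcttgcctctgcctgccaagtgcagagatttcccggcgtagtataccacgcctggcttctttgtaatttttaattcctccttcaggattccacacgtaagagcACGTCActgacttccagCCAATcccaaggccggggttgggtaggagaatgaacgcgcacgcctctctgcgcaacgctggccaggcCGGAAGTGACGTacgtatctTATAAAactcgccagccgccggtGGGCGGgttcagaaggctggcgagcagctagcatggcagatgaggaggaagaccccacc
E4f1 promoter: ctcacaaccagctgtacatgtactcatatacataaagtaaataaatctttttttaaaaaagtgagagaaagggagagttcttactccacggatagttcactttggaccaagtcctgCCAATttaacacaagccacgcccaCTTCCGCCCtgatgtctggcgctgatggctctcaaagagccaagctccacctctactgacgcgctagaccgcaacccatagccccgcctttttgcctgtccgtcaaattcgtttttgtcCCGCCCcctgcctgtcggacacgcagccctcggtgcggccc
Bag6 promoter: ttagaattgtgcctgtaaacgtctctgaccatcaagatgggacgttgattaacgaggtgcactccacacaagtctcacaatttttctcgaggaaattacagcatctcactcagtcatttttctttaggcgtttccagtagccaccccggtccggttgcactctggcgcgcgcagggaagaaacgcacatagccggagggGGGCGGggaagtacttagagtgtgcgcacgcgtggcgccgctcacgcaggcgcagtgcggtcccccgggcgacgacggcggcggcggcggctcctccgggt
Prrc2a promoter: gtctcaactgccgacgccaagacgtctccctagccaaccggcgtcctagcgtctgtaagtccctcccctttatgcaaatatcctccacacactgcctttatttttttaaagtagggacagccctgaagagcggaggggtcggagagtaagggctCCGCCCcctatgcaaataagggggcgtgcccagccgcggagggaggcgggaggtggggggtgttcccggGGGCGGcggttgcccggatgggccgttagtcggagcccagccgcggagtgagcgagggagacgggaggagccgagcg

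Of the 4 promoters, that of Taf13 alone held TATAAA, starting at -32 from the RefSeq TSS, a motif found in 14.2% of 27025 RefSeq promoters of the same length. It also held CCAAT at -120 (37.9% of promoters), CGGAAG at -52 (17.2%), GGGCGG at -9 (35.9%) and TGACGT at -46 and, on the minus strand, at -137 (7.64%), with CGGAAG and the nearer TGACGT directly joined. The E4f1 promoter held CCAAT at -134 and, on the minus strand, CGGAAG at -110 and GGGCGG at -107 and 10, the first pair overlapping. The Bag6 promoter held GGGCGG at -51, and the Prrc2a promoter at -27 and, on the minus strand, at -96. CACGTG (7.24% of promoters) was in none of the 4. GC content was 51.3% at E4f1, 57.3% at Taf13, 59.3% at Bag6 and 64.0% at Prrc2a, against a median of 52.7%, with 15, 20, 30 and 25 CpG dinucleotides against a median of 7.

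A further 3 sequences are shown because the PolII peaks stood on them or beside them. The summit of the E4f1 peak lay not in the promoter window but in the first intron, and the 121 bases around its median position (chr17:24591787-24591907, minus strand) are printed without capitals. A stretch of 30 bases close to the annotated end of Bag6 (chr17:35284225-35284254, plus strand) and the last 30 bases of Prrc2a (chr17:35286021-35286050, minus strand) lie in 3′ untranslated exons, and capitals there mark AATAAA, the polyadenylation signal.
E4f1 intron summit: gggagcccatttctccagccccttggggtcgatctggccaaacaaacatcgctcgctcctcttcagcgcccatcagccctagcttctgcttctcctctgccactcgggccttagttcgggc
Bag6 end: taagaAATAAAagtcggattttcctggctc
Prrc2a end: gaatAATAAAagaattttaaaaaaaaaaaa

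AATAAA began 36 bases before the annotated end of Bag6 and 26 before that of Prrc2a, and 54.0% of 2124 coding genes of chromosomes 3 and 17 held it in their last 50 bases. E4f1 held it 8 bases before its end and Taf13 did not hold it.

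Each peak list gives for every peak a fold enrichment. It is the reads piled up at the summit over the local background that the caller assigned to that position, with 1 added to each. Because of the added 1, the same ratio of pileup to background gives a lower fold in a shallower list. Within a library, regions were placed by their highest fold enrichment, with place 1 for the strongest and ties sharing a mean place. Between 22313 and 73761 regions were detected in a post-mitotic library, 1480 to 2399 in a prometaphase library, and 15784 in all 14 post-mitotic libraries. Changes of place are given as −log2 of the place, on which 1.00 is a place number 0.5 times as large and positive values mean a stronger place. The post-mitotic lists held peaks at the TSSs of 10 of 12 erythroid precursor genes in all 14 libraries, with Zfpm1 in 12 and Lmo2 in 13. Of 13 markers of T cells, B cells, macrophages, liver and neurons, Cd68 had a TSS peak in all 14, Cd79a in 1 and the others in none. Depth recovered from the lists ran from 4.54 to 13.3 reads per kb of genome, and was lowest among the post-mitotic libraries in mid-G1 control replicate 1, which also had the fewest regions.

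E4f1 climbed through G1. In early-G1 its TSS region stood at place 6625 and 4630 in the control libraries and at 4078 and 5054 in the auxin libraries, or within the strongest 6.98% to 10.3% of a list. In mid-G1 it stood at 1018.5, 637 and 1088 in control and at 575, 529.5 and 479 with auxin. In late-G1 it stood at 270 and 293 in control and at 311 and 447.5 with auxin, so the places of the 3 stages did not overlap in either condition. Fold enrichment was 17.5 and 21.4 in early-G1 control, 26.5 and 22.4 in early-G1 auxin, 24.4, 35.7 and 40.7 in mid-G1 control and 46.7, 52.8 and 46.3 in mid-G1 auxin libraries. By late-G1 it had reached 52.4 and 60.6 in control and 49.2 and 41.7 with auxin. On the fold scale early-G1 lay below late-G1 in both conditions, whereas the mid-G1 and late-G1 auxin libraries overlapped.

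The control change of E4f1, 4.30 between early- and late-G1, is the value that chose the gene and was the largest rise of all 15784 regions. In the auxin libraries, whose values were known when the genes were chosen and which give no independent support, the change was 3.61 ± 0.33 (SE), a place number 12.2 times smaller (limma, adjusted p = 9.44e-05). Most of it fell between early- and mid-G1 (3.11 ± 0.30, limma adjusted p = 0.000201), and the further change to late-G1 did not pass the test (0.50 ± 0.30, limma adjusted p = 0.503). The early- to mid-G1 call was lost with places by summit pileup (0.54, limma adjusted p = 0.403), with log2 pileup over the lowest background (0.0352, limma adjusted p = 0.983) and with normal scores of the place (0.90, limma adjusted p = 0.275). Of all regions, 2.36% were called higher and 2.24% lower in late-G1 of treated cells, 1.88% and 1.6% between early- and mid-G1, and 0.729% and 0.786% between mid- and late-G1. In counts, 373 rose and 353 fell in late- against early-G1, and 41 rose and 274 fell by log2 pileup over the lowest background, a scale without ranks.

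The background assigned to the E4f1 summit moved with this climb. It is given as a multiple of the lowest background of the same list. Early-G1 control libraries had multiples of 2.77 and 2.15 and auxin libraries 2.63 and 2.78, all 6 mid-G1 libraries had 1.09, and the 4 late-G1 libraries had 1.00 to 1.004. The reads piled up at the summit were 86 and 119 in early-G1 control, 113 and 108 in early-G1 auxin, 144 and 189 in late-G1 control and 118 and 99 in late-G1 auxin libraries. With regions placed by this pileup, which leaves the background out, E4f1 stood at 1922.5 and 1253 in early-G1 control and at 751 and 972 in early-G1 auxin libraries, at 1102, 721 and 1178 in mid-G1 control and 668, 581 and 521.5 in mid-G1 auxin libraries, and at 337 and 478 in late-G1 control and 388 and 566.5 in late-G1 auxin libraries. On that scale the stages did not overlap in control, whereas mid- and late-G1 overlapped with auxin, and the late minus early change with auxin, 0.87 ± 0.33, did not pass the test (limma adjusted p = 0.161). The log2 pileup over the lowest background of the list changed by -0.12 ± 0.27 in the same libraries (limma adjusted p = 0.786). The median change over all regions was -0.32, and E4f1 lay 0.20 above it, a distance that was not tested. The log2 background itself changed by -1.43 in auxin and -1.29 in control libraries, the lowest but 2 of all 15784 regions with auxin.

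Taf13 was among the strongest places from the outset and still rose. In early-G1 its TSS region stood at place 784 and 994 in control and 686 and 454 with auxin. In mid-G1 it stood at 102, 139 and 246 in control and 219, 168 and 165 with auxin, and in late-G1 at 55 and 42 in control and 72 and 49 with auxin. The 3 stages did not overlap in either condition, and in late-G1 the region was within the strongest 0.0569% to 0.159% of a list. Fold enrichment followed the same order, with 43.2 and 38.0 in early-G1 control, 48.0 and 51.1 in early-G1 auxin and 62.4 to 74.1 over the 6 mid-G1 libraries. Late-G1 control libraries gave 86.4 and 82.9 and auxin libraries 81.9 and 87.9.

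The control change of Taf13, 4.20, is again what chose it, and was the largest rise but 2. With auxin the change was 3.23 ± 0.40, a place number 9.4 times smaller (limma, adjusted p = 0.00108). It was spread over both steps, with 1.61 ± 0.36 from early- to mid-G1 (limma adjusted p = 0.0246) and 1.62 ± 0.36 from mid- to late-G1 (limma adjusted p = 0.0386). These stepwise calls were not firm. The first was lost on leaving out any of 4 libraries, early-G1 auxin replicate 1 or 2 or mid-G1 auxin replicate 2 or 3 (changes of 1.32, 1.91, 1.55 and 1.54), and the second on leaving out any of the 5 mid- and late-G1 auxin libraries (1.34 to 1.90) or any of the 4 early-G1 libraries (1.62 in each case). A mean-variance trend ended both (limma adjusted p = 0.0806 and 0.117), as did places by −log10 p-value (0.77 and 0.40, limma adjusted p = 0.170 and 0.638). The second was also lost with places among shared regions (limma adjusted p = 0.0554) and with the replicate number as a block (1.56, limma adjusted p = 0.0568). By summit pileup the steps were 0.45 and -0.24 (limma adjusted p = 0.436 and 0.839).

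At Taf13, too, background moved with place while the pileup hardly did. The background multiple was 2.77 and 2.69 in early-G1 control, 2.33 and 2.23 in early-G1 auxin, 1.51 to 1.77 over the 6 mid-G1 libraries and 1.00 to 1.004 in the 4 late-G1 libraries. The pileup was 214 and 255 reads in early-G1 control, 188 and 208 in early-G1 auxin, 143, 234 and 223 in mid-G1 control and 212, 246 and 233 in mid-G1 auxin libraries. Late-G1 control libraries had 238 and 259 reads and auxin libraries 197 and 210. Placed by pileup, Taf13 stood between 60 and 108 in all 14 post-mitotic libraries, and its late minus early change with auxin was 0.21 ± 0.29 (limma adjusted p = 0.740). The log2 pileup over the lowest background changed by -0.05 (limma adjusted p = 0.920), which lay 0.27 above the median of all regions. The log2 background changed by -1.19 with auxin, the 20th lowest of all regions, and by -1.45 in control.

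**Figure D1:**
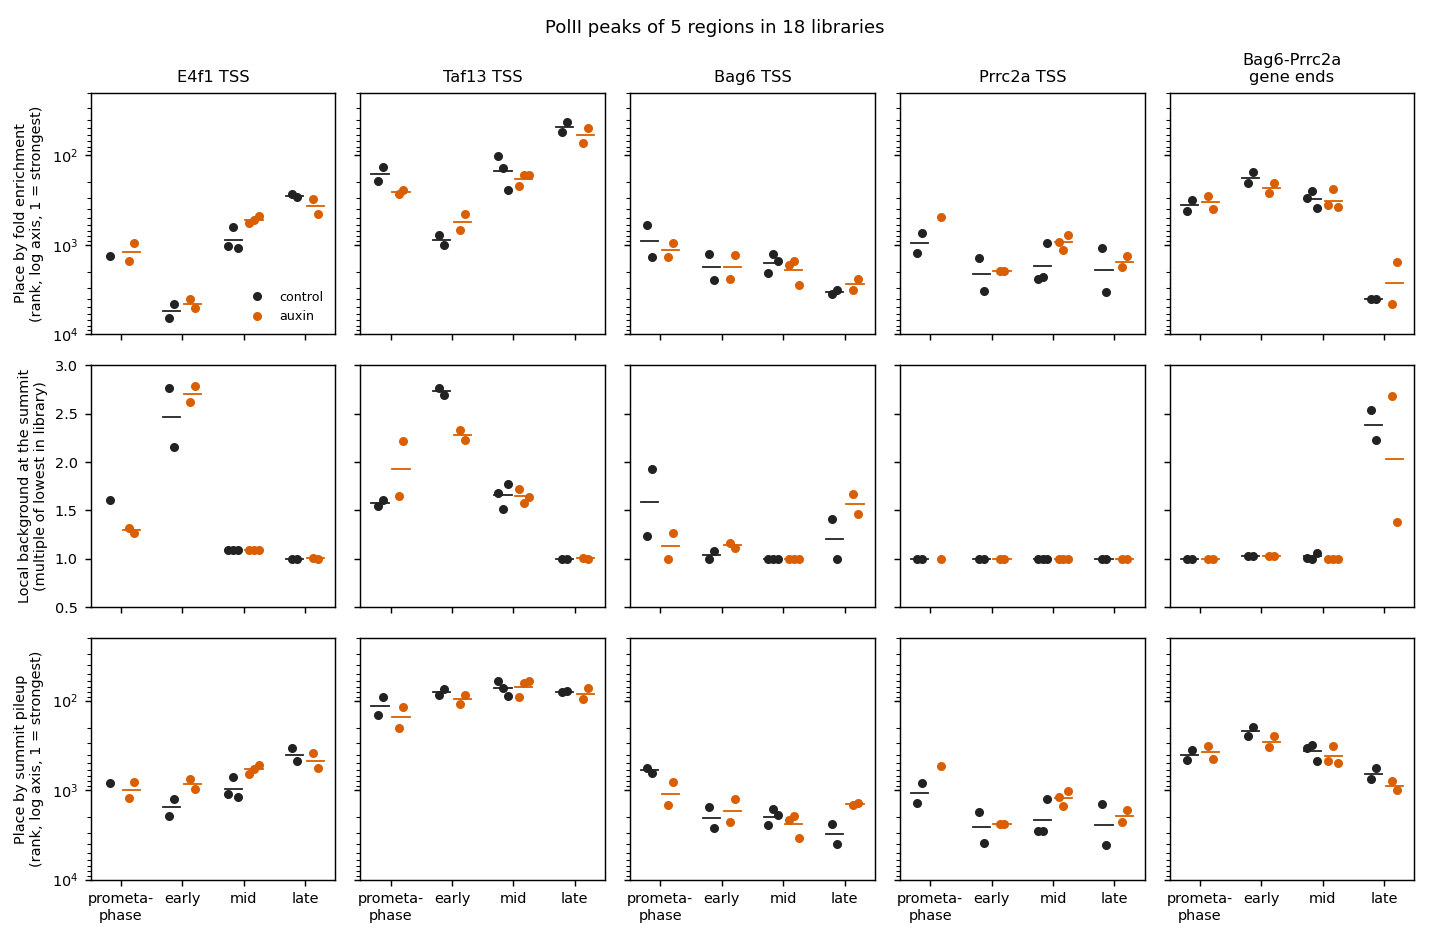
Top row, place by highest fold enrichment (log axis, strongest on top), middle row, local background at the summit as a multiple of the lowest in the library, and bottom row, place by summit pileup (log axis), for the 5 regions in 18 libraries. Points are libraries in control (black) and auxin (orange), and short lines are group means (geometric for places). E4f1 and Taf13 climb from early- to late-G1 in the top row as their background falls to the lowest level, and the gene ends drop in late-G1 as theirs rises. In the bottom row Taf13 stays between 60 and 108 after mitosis.

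The region between the ends of Bag6 and Prrc2a took the opposite course. In early-G1 it was one of the strongest of the genome, at place 205 and 153 in control and 266 and 202 in auxin libraries. In mid-G1 it was still at 300.5, 251.5 and 390.5 in control and 359.5, 239 and 382.5 with auxin. In late-G1 it stood at 4077 and 4010 in control and at 4537 and 1563 with auxin, so all 4 late-G1 libraries lay behind all 10 earlier ones. Fold enrichment was 61.6 to 64.5 over the 4 early-G1 libraries and 38.5 to 66.1 over the 6 mid-G1 libraries. It then dropped to 20.3 and 31.9 in late-G1 control and 20.3 and 28.6 in late-G1 auxin libraries.

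In control cells the fall of -4.51 chose the pair of genes and was the largest of all regions but 1. With auxin it was -3.52 ± 0.43, a place number 11.5 times larger (limma, adjusted p = 0.00108), and the region had the lowest change but 2 of all regions. The early- to mid-G1 step was -0.47 ± 0.39 (limma adjusted p = 0.581), and the mid- to late-G1 step -3.06 ± 0.39 passed the test (limma adjusted p = 0.00198). That step was smaller and no longer called with places by summit pileup (-1.08, limma adjusted p = 0.199), log2 pileup over the lowest background (-0.57, limma adjusted p = 0.459) and normal scores (-0.97, limma adjusted p = 0.247). Of 563 regions over the ends of convergent coding genes without a TSS, 9 were called higher and 5 lower (1.60% and 0.888%), and this one had the lowest change. The next lowest lay between Hnrnph1 and Rufy1, at -2.15 (limma adjusted p = 0.00851). Among 1837 other regions over a coding gene end 44 were called higher and 19 lower, and the median change over all regions was -0.03.

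Here the background rose as the place fell. Its multiple was close to 1 in all 4 early-G1 libraries, 1.00 to 1.06 in mid-G1, and 2.53 and 2.23 in late-G1 control and 2.68 and 1.38 in late-G1 auxin libraries. Late-G1 auxin replicate 2, with the lowest of these multiples, also had the best late-G1 place, 1563. The pileup was 156, 198, 140 and 155 reads in early-G1 and 110, 183, 96 and 83 in late-G1, each in the order control and then auxin. These ranges overlap through the 183 reads of the deepest library, and the counts are not corrected for depth. As a multiple of the lowest background of the list, the pileup was 92.8 to 112 in early-G1 and 59.2 to 85.6 in late-G1, without overlap. Placed by pileup, the region stood at 195 to 330.5 in early-G1, 315.5 to 494 in mid-G1 and 565.5 to 1003 in late-G1, so that the order of the stages held apart from a slight overlap of early- and mid-G1. The late minus early change with auxin was then -1.63 ± 0.31 and still passed the test (limma adjusted p = 0.0140). On the log2 pileup over the lowest background it was -0.81 and did not pass (limma adjusted p = 0.094). That change lay -0.49 from the median of all regions.

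Neither promoter of the pair shared this fall. The Bag6 TSS region stood at place 1253.5 and 2477 in early-G1 control, 2427.5 and 1302.5 in early-G1 auxin, 1272 to 2808 over mid-G1, 3528 and 3227.5 in late-G1 control and 3214.5 and 2387.5 in late-G1 auxin libraries. Late-G1 lay behind early-G1 in control, whereas the auxin groups overlapped. The change with auxin was -0.64 ± 0.42 (limma adjusted p = 0.417), at a background multiple of 1.00 to 1.17 in early-G1, 1.00 in mid-G1 and 1.00 to 1.67 in late-G1. By pileup it was 0.24 ± 0.38, of the opposite sign (limma adjusted p = 0.770). In control the change was -0.94, the 1179th largest fall of all regions.

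The Prrc2a TSS region stood at 1399 and 3277.5 in early-G1 control, 1972.5 and 1975.5 in early-G1 auxin, 777.5 to 2428.5 over mid-G1, 1097.5 and 3379.5 in late-G1 control and 1788 and 1344 in late-G1 auxin libraries. Its late minus early change was 0.15 in control and 0.35 ± 0.54 with auxin (limma adjusted p = 0.764), a small gain that lies within the spread of the libraries. It is the only one of the 5 regions whose background stayed at the lowest level of the list, a multiple of 1.00, in all 14 post-mitotic libraries. For these 2 promoters, which the control change did not choose as regions, the change did not differ detectably between auxin and control (difference 0.30 ± 0.59 at Bag6 and 0.20 ± 0.76 at Prrc2a, limma adjusted p = 0.997 and 0.998).

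The local background is thus a value that moved with the result at each of the 3 regions that changed. Over all 15784 regions its median log2 change from early- to late-G1 with auxin was -0.0003, and it fell by more than 0.5 in 4.66% and rose by as much in 5.96%. Among the 373 regions called higher it fell by more than 0.5 in 30.3%, and among the 353 called lower it rose by more than 0.5 in 32.0%. Placed by pileup, 205 of the 373 and 172 of the 353 were called in the same direction. Across regions the change of place and the change of background had a Pearson correlation of -0.40, a description over regions of the same libraries that share depth. Background is in the denominator of the fold enrichment that sets the place. The negative sign, and the shares among called regions, are therefore in part built in. At the median region, libraries of a stage were given nearly the same multiple (median SD of the log2 multiple 0.053 in early-, 0.082 in mid- and 0.075 in late-G1). In each stage 57.8% to 58.2% of the multiples were at the lowest level, so this median rests largely on such values. Regions with a raised background could vary more, as the gene ends did in late-G1 auxin libraries (1.38 and 2.68). According to the methods of the study, the caller was given an input control for every stage, and the labels list 1 input a stage. Control and auxin libraries of a stage may therefore share their input, and stage and input cannot be told apart in these lists.

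**Figure D2:**
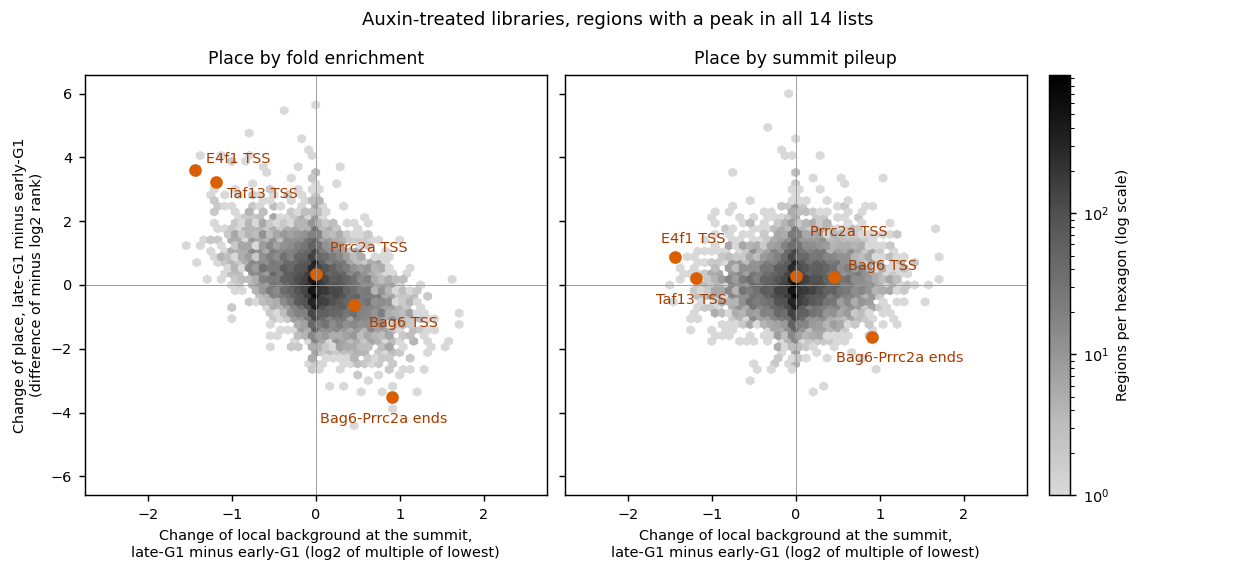
Change of place against change of the log2 background at the summit, late-G1 minus early-G1 of auxin libraries, with places by fold enrichment (left) and by summit pileup (right). Grey hexagons count the 15784 regions (log scale), and orange points are the 5 named regions. E4f1 and Taf13 lie at background changes of -1.43 and -1.19 and the gene ends at 0.91, and all 3 are nearer to 0 in change of place on the right.

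In prometaphase, where lists are short, the gene ends and Taf13 already had peaks in all 4 libraries. The Taf13 TSS region stood at place 194 and 135 in control and 270 and 242 with auxin, with fold enrichments of 17.1, 20.1, 13.6 and 13.3. The gene ends stood at 414, 319.5, 282.5 and 399, with fold enrichments of 11.5, 13.3, 13.2 and 10.3. These places put Taf13 within the strongest 6.71% to 16.4% of the prometaphase lists. E4f1 had a peak in 3 of 4 prometaphase libraries, with fold enrichments of 6.25 to 6.84, and none in control replicate 1. Prrc2a had a peak in 3 of 4, with none in auxin replicate 2, and Bag6 in 4 of 4, with fold enrichments of 6.60 to 9.39. All 5 regions were detected in 14 of 14 post-mitotic libraries. Signal below the threshold of the caller is not listed.

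No effect of CTCF depletion on place was detected at any of the 5 regions. The average auxin minus control change over the 3 post-mitotic stages was 0.21 ± 0.18 at E4f1, 0.03 ± 0.22 at Taf13, -0.01 ± 0.23 at Bag6, 0.44 ± 0.29 at Prrc2a and 0.05 ± 0.23 at the gene ends. None was called (limma adjusted p = 0.625 to 0.997), where 0.393% of all regions were called higher and 0.336% lower. In mid-G1 alone the change was largest at Prrc2a, 0.90 ± 0.44 (limma adjusted p = 0.550), and at E4f1, 0.76 ± 0.27 (limma adjusted p = 0.383), with 0.12% called higher and 0.101% lower over all regions. The places of E4f1 in mid-G1 did not overlap between conditions, at 637 to 1088 in control and 479 to 575 with auxin, yet the change did not pass the test.

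Summits showed where in each region the polymerase stood. At E4f1 the summit lay 393 to 423 bp downstream of the GENCODE TSS in all 14 post-mitotic libraries (chr17:24591833-24591863, within intron 1), with an SD of 8.90 bp over libraries. Only 7.02% of 7791 coding genes had a mean summit further downstream, and 1.08% a smaller SD. The RefSeq start lies at -81 from the GENCODE start, so the summit is further still from that promoter. At Taf13 the summit lay 29 to 64 bp past the TSS, at Prrc2a 44 to 137 bp and at Bag6 between -33 and 255 bp. In treated libraries none of these positions moved detectably from early- to late-G1 (changes of -13 bp at E4f1, 11 at Taf13, 19 at Prrc2a and -10.5 at Bag6, exact two-sided permutation p = 0.124 to 0.819).

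At the gene ends the summit lay past the end of Bag6, in the gap between the genes. Its median distance from the Bag6 end was 158.5 bp in early-G1 (73 to 185), 182.5 bp in mid-G1 (88 to 470) and 421 bp in late-G1 (207 to 463). All late-G1 summits lay beyond all early-G1 summits, while mid-G1 overlapped both. The 121 bases printed next, at chr17:35284363-35284483 on the plus strand, lie around the early-G1 summits.
Between the gene ends: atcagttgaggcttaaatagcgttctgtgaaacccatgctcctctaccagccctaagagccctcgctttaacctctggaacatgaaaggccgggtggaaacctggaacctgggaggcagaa
In prometaphase the highest peak of the region was often inside the Bag6 gene, from -692 to 139 bp (median -447).

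**Figure D3:**
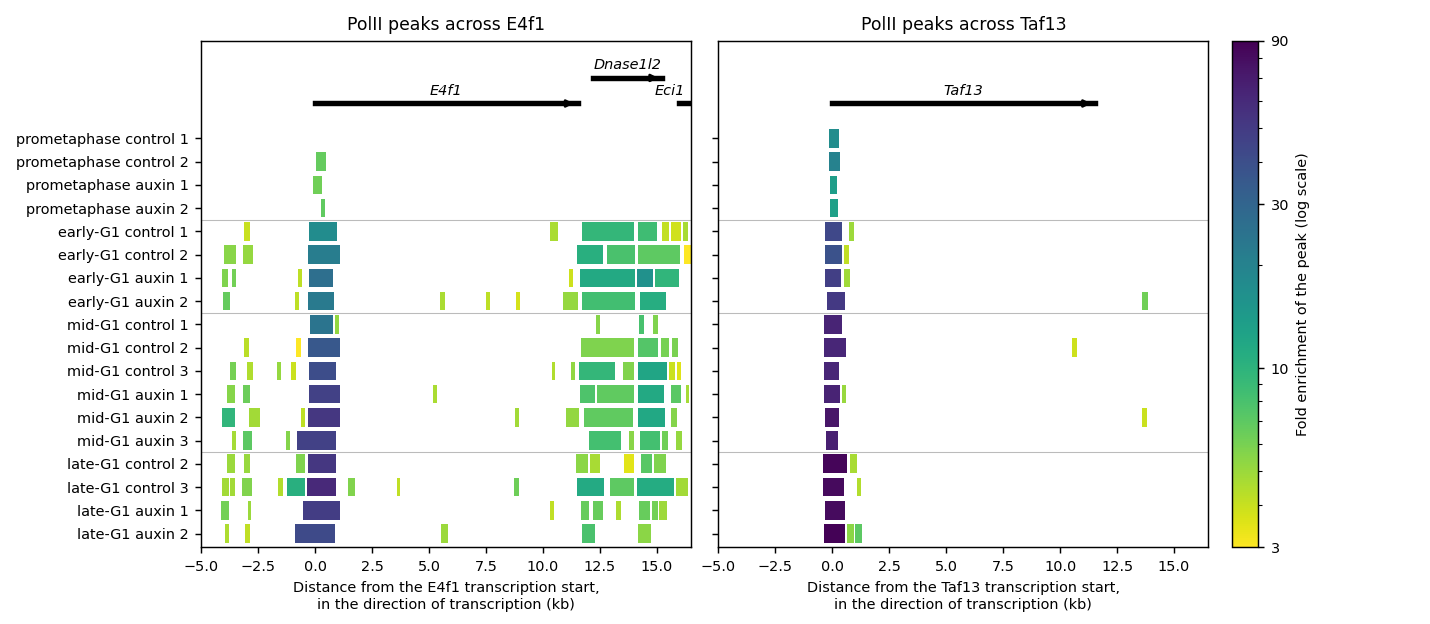
PolII peaks of the 18 lists along E4f1 and Taf13, by distance from the TSS in kb in the direction of transcription, with bars for peaks coloured by fold enrichment (log scale) and arrows for genes. The strongest peaks of both genes keep to the start of the gene, and E4f1 has a further block of peaks past its end.

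**Figure D4:**
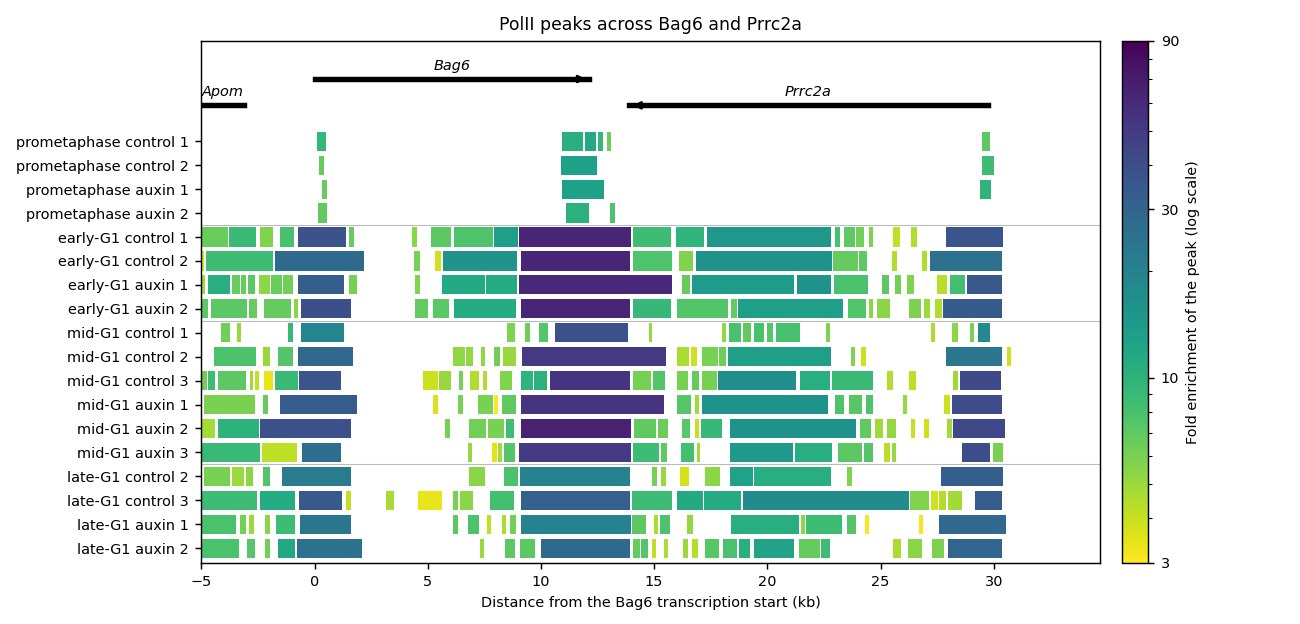
PolII peaks of the 18 lists from upstream of Bag6 to upstream of Prrc2a, by distance from the Bag6 TSS in kb, drawn as in the map of E4f1 and Taf13. The strongest peak of the early- and mid-G1 libraries spans the end of Bag6 and the gap to the end of Prrc2a, and its fold enrichment is lower in the 4 late-G1 libraries.

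The genes differed in how far peaks reached into them. The gene body was taken from 500 bp past the TSS to the gene end, and coverage is the percent of its bases under a peak. Averaged over the 14 libraries, coverage was 1.61% at Taf13 and 6.97% at E4f1, and 54.0% at Bag6 and 67.1% at Prrc2a, against a median of 10.7% over 7791 coding genes. Peaks at Taf13 and E4f1 thus kept to the start of the gene, whereas those of Bag6 and Prrc2a ran along most of it.

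Coverage of the pair of genes was lower in late- than in early-G1 of treated cells, without passing the test after adjustment, and the groups of control cells overlapped in Prrc2a. In Bag6 it was 68.4% ± 2.90 (SD, n = 2) in early-G1, 49.2% ± 6.86 (n = 3) in mid-G1 and 45.1% ± 2.03 (n = 2) in late-G1 of treated cells. In Prrc2a it was 81.9% ± 3.89, 67.7% ± 7.72 and 57.2% ± 1.99 in the same groups. Early- and late-G1 did not overlap in either gene, with late minus early differences of -23.3 and -24.7 percentage points (exact two-sided permutation p = 0.0286 and 0.00952 over 210 arrangements, the latter the smallest they can give). Adjusted over the 12 comparisons of 4 genes and 3 measures by Benjamini-Hochberg, both exact p-values became 0.114 and neither difference passed. In control cells the differences were -16.5 and -7.35. Bag6 coverage was 69.2% and 73.1% in early-G1 control, 28.0% to 51.6% in mid-G1 control and 47.0% and 62.2% in late-G1 control libraries, lower in late- than in early-G1 but not below mid-G1. In control cells the values of the other gene overlapped, with Prrc2a coverage of 76.3% and 79.9% in early-G1 against 50.1% and 91.4% in late-G1. The higher of these late-G1 values belongs to the deepest library, control replicate 3. The median difference over 7791 genes, whose median coverage was 10.7%, was -0.97 with auxin. The lists as a whole also shrank in treated cells. Their peaks covered 57138656 and 56775446 bp in early-G1 auxin and 47268618 and 42086516 bp in late-G1 auxin libraries. How far the differences at the pair go with this was not tested.

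Coverage of the E4f1 and Taf13 bodies showed no such difference (-2.33 and 1.62 percentage points, exact permutation p = 0.610 and 0.476). The E4f1 TSS peak was wider in late-G1, at 1708 bp ± 84.1 against 1097 bp ± 16.3 in early-G1 (SD, n = 2 treated libraries each), with an exact permutation p of 0.0190, or 0.114 adjusted over the same 12. In control libraries this peak measured 1284.5 bp in late- and 1310.5 bp in early-G1, which shows no such widening, and the difference between conditions was not tested. Downstream of E4f1, where the next gene is Dnase1l2, coverage of the 5 kb window was 76.4% ± 9.76 in early- and 32.1% ± 13.2 in late-G1 of treated cells. It was 81.3% and 90.2% in early-G1 and 47.6% and 88.1% in late-G1 of control cells, where the groups overlapped, and neither difference was tested. Auxin minus control differences in body coverage, TSS peak width and summit position did not pass for any of the 4 genes (exact permutation, adjusted p = 0.8 to 0.992 over 12 comparisons and 720 arrangements).

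The balance between the gene ends and the promoters of the pair was looked at after the values were seen. The fold enrichment of the gene ends over that of the Bag6 promoter was 1.67 and 2.19 in early-G1 control and 1.86 and 1.62 in early-G1 auxin libraries. It was 1.43 to 2.02 over mid-G1, 0.930 and 0.911 in late-G1 control and 0.853 and 1.15 in late-G1 auxin libraries. All late-G1 ratios therefore lay under all earlier ones. The pair was chosen by the fall of its gene ends in fold-enrichment place in control cells, so the control ratios give no support. The auxin values were known at the choice and give no independent support either. Over the Prrc2a promoter it ran from 1.72 to 2.45 in early-G1 and from 0.616 to 0.953 in late-G1, again without overlap. With auxin the log2 ratios changed by -0.81 and -1.13 (exact two-sided permutation p = 0.0381 and 0.00952, adjusted p = 0.102 and 0.0762 over 8 comparisons), and neither passed after adjustment. From pileups the ratios lay between 1.11 and 2.51 in the post-mitotic libraries. The changes were -0.50 and -0.51 (exact permutation p = 0.0762 and 0.0381, adjusted p = 0.102 for both), and neither passed. By pileup, early- and late-G1 overlapped over the Bag6 promoter (early from 1.55, late up to 1.68). Over the Prrc2a promoter they did not (early from 1.75, late up to 1.71).

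**Figure D5:**
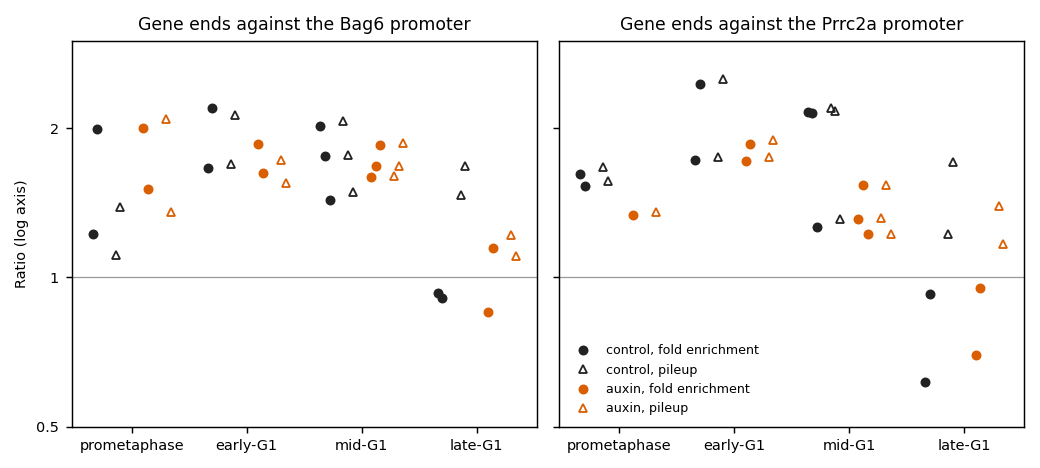
Ratio of the gene ends to the Bag6 promoter (left) and to the Prrc2a promoter (right) in each library, by stage and condition (log axis), from fold enrichments (filled) and from summit pileups (open). By fold enrichment the late-G1 ratios lie between 0.616 and 1.15 and those of early-G1 between 1.62 and 2.45, and by pileup the late-G1 ratios lie between 1.11 and 1.71.

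Other genes of the same complexes and pathways were counted in lists. The shares to read them against, in late- against early-G1 with auxin, are 2.36% of all regions called higher and 2.24% called lower, and 156 higher and 234 lower of 6874 regions over a coding TSS. Of 17 TFIID genes, 15 had a TSS region in all 14 libraries. With auxin, Taf13 was called higher in late-G1 and Taf9, a histone-fold subunit, lower (-1.29, limma adjusted p = 0.0186), with a median change of -0.45. Taf12, another histone-fold subunit and about as strong as Taf13 (median place 193 against 166.5), changed by -1.15 (limma adjusted p = 0.0740). Of 10 genes listed for E4F1, 9 were tested, and beside E4f1 itself, called higher, 3 were called lower. These were Dld, a subunit shared by 2-oxoacid dehydrogenases (-1.48, limma adjusted p = 0.0432), Brp44l, a subunit of the mitochondrial pyruvate carrier (-1.67, limma adjusted p = 0.0339), and Chek1, a checkpoint kinase (-1.92, limma adjusted p = 0.0210). The median of this list was -0.77 against -0.03 over all regions, and no test of a list was run.

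Of 8 genes for BAG6 and tail-anchored protein insertion, 6 were tested and none was called (median -0.55), and the same held for Prrc2a and Prrc2c, the 2 tested of 3 Prrc2 genes (median -0.28). Of 20 neighbours of Bag6 and Prrc2a in the class III interval, 13 were tested in 11 regions. Tnf, which encodes the cytokine tumour necrosis factor, was called higher (3.66, limma adjusted p = 0.00422) and none lower, with a median of 0.07. Averaged over stages, auxin against control gave no call in any of the 5 lists, Taf13 and E4f1 included.

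Some promoters had courses much like those of the members over the 14 libraries, by Pearson correlation of −log2 place, given as a description of libraries that share stage and depth. Nearest to E4f1 were Slc26a6 (r = 0.938), Acly, the enzyme that makes cytosolic acetyl-CoA (0.934), and Adck4 (0.929). Nearest to Taf13 were Arrdc2 (0.955), Kdm3a, a histone demethylase (0.925), and Spns2 (0.916). Nearest to the gene ends were Thoc1, a subunit of the THO complex of mRNA export (0.950), the shared region of Gm12522 and Psrc1 (0.946) and Pnrc2 (0.940). The promoters of Bag6 and Prrc2a had less similar partners, at best 2810417H13Rik (0.846) and Dgcr8, a subunit of the microRNA processing complex (0.823). Acly rose by 3.15 with auxin and Arrdc2 by 2.76, and Pnrc2 fell by 2.38.

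In the control order that chose the members, the regions next to them were of the same size. Between E4f1 and Taf13 stood a U5 small nuclear RNA gene (4.25), and just behind Taf13 came Fasn, the fatty acid synthase gene (4.06). The single region with a larger fall than the gene ends held a U1 gene (-4.74), and the next smaller one a U2 gene (-3.97). Over all regions the middle 90% of control changes lay between -1.10 and 1.14. With auxin, E4f1 and Taf13 were the 18th and 25th largest rises.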

How the data were processed

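PolII ChIP-seq peak lists of 18 libraries were used. According to the methods of the study, the authors aligned reads to mm9 with Bowtie2 2.2.9 in local mode, removed low-quality, duplicate, mitochondrial and blacklisted reads (SAMtools 0.1.19, bedtools 2.27.1), removed 1 late-G1 replicate for a technical error, and called peaks for each library with MACS2 2.1.0 at a q-value cutoff of 0.01, with an input control for every stage. Replicates were not pooled. The deposited lists give for each peak a fold enrichment, a −log10 p-value and a −log10 q-value, all computed by the authors, with the summit as an offset. The fold enrichment is a linear ratio of summit pileup to local background, with 1 added to each. No read counts were used, so no count model was applied, and the precision behind a value is given by the pileup and the number of libraries.

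Each peak's pileup and background were solved from its fold enrichment together with its −log10 p-value. The pileup was whole within 0.05 for 100% of peaks. Reads per kb are the lowest background over the narrowest peak of a list. Peaks overlapping by at least 1 bp were merged over the 18 lists. The −log2 place of regions detected in all 14 post-mitotic libraries was fitted with limma 3.58.1 (R 4.3.3) by 6 group means, called at a Benjamini-Hochberg adjusted p under 0.05, after a check on simulated data. Single values were compared by exact two-sided permutation, of stage labels over the 7 auxin libraries or of auxin labels within stages, in Python 3.11.15 with scipy 1.17.1. Groups were taken from the sample titles. The members and gene lists were chosen with earlier results of these data known, including the auxin values, which are therefore not independent support. Genes named beside the members are those in their windows, the 3 promoters most alike by place, the neighbours in the control order and list genes that were called or serve as examples. Hnrnph1, Rufy1 and the ratios of gene ends to promoters were chosen after values were seen. The alternatives were other place measures, limma with a mean-variance trend or replicate block, other peak thresholds and overlaps, fixed TSS windows and leaving out each library. Input samples entered through the peak calling alone.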

Additional observations from a re-analysis of the deposited data

How the results depend on the processing

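The calls at E4f1, Taf13 and the gene ends in late- against early-G1 of treated cells kept their direction and stayed called without any single one of the 14 libraries (3.34 to 3.87, 2.93 to 3.53 and -4.29 to -2.75), and with a mean-variance trend, places by −log10 p-value, places among shared regions, peaks of −log10 q of 5 or more, an overlap of 200 bp and the replicate block. Only the early- and late-G1 auxin libraries enter the change itself. Leaving out any other library alters only its spread and the set of regions tested, so those cases could not alter its size or direction. The calls were lost with normal scores of the place (0.97, 0.66 and -1.13, limma adjusted p = 0.197, 0.274 and 0.138). They also were lost with the log2 pileup over the lowest background (-0.12, -0.0504 and -0.81, limma adjusted p = 0.786, 0.920 and 0.094), and at E4f1 and Taf13 with places by pileup, an alternative chosen after seeing the data (0.87 and 0.21). Background is left out of both pileup measures by construction, and for the normal score the cause was not tested. Fixed TSS windows give no value for the gene ends. The calls of single steps were less stable. Log2 pileup, pileup place and normal scores ended those of E4f1 and Taf13 from early- to mid-G1 and those of Taf13 and the gene ends from mid- to late-G1. Prrc2a reversed to -0.30 by log2 pileup and -0.0261 by normal score, and Bag6 to 0.24 by pileup place. The log2 pileup and the normal score had medians of -0.32 and -0.22 over all regions, and Prrc2a lay 0.02 and 0.19 above them.

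For late- against mid-G1, log2 pileup gave -0.16 at E4f1 and -0.14 at Taf13, pileup place -0.24 at Taf13 and 0.75 at Bag6, and −log10 p place 0.22 at Bag6. For auxin against control over stages, Bag6 was 0.25 by log2 pileup, 0.20 by −log10 p place and 0.36 by pileup place, Taf13 was -0.00731, -0.0617 and -0.0920 by normal score, −log10 p place and pileup place, and the gene ends were -0.00741, -0.17 and -0.34 by the same 3. In mid-G1 alone, log2 pileup gave 0.0240 at Taf13, 0.16 at Bag6 and 0.13 at the gene ends, normal scores 0.0182, 0.0234 and 0.0735, and pileup place 0.0496 at Taf13. None of these passed the test. With peaks of −log10 q of 5 or more, body coverage changed by 0.18 percentage points at E4f1 (late minus early) and by 0.24 at Taf13 (auxin minus control).

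Same-numbered control and auxin libraries deviated together with correlations of 0.0144 in early-G1, 0.102, 0.112 and 0.293 in mid-G1 and 0.0110 in late-G1, so the numbers were not taken as pairs. Each control library with a same-numbered auxin library resembled that one most. In early- and late-G1, with 2 libraries a condition, the deviations mirror each other. There the likeness is only the sign of correlations of 0.0144 and 0.0110, and each stage gives a single value. Not all late-G1 libraries have such a partner. The replicate block ended the late- against mid-G1 call at Taf13 (1.56, limma adjusted p = 0.0568) and changed no other call at the 5 regions. It raised the counts of calls to 1059, 817, 275, 159 and 52 from 726, 550, 239, 115 and 35 (late against early, mid against early, late against mid, auxin over stages, auxin in mid-G1). With the block, auxin minus control became 0.111 percentage points for Taf13 body coverage, -17.3 bp and -255.7 bp for the width of the Bag6 and Prrc2a TSS peaks, and -11.9 bp for the Prrc2a summit.

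Counts of called regions moved more than the members did. In the order just given they were 319, 315, 151, 44 and 14 with fixed TSS windows (7912 regions tested). With normal scores they were 0, 0, 0, 3 and 0, beside 1624, 811, 964, 543 and 675 regions at an unadjusted p under 0.05. By log2 pileup they were 315, 26, 24, 114 and 53, where the median of all regions moved by -0.32 in the first. Places by −log10 p-value gave 278, 13, 193 and 55 in the last 4. Places by pileup gave 271, 0, 215 and 62 in the same 4, the 0 beside 1557 regions at an unadjusted p under 0.05. Places among shared regions gave 437 in the first, and the mean-variance trend 62 in the last.

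Leaving out 1 library at a time gave 135 to 960, 99 to 733, 20 to 401, 55 to 212 and 18 to 67 calls. Late against early gave 135, 146, 137 and 187 without early-G1 auxin replicate 1 or 2 or late-G1 auxin replicate 1 or 2. Mid against early gave 128 and 99 without early-G1 auxin replicate 1 or 2 and 251, 277 and 291 without mid-G1 auxin replicate 1, 2 or 3. Late against mid gave 20 and 37 without late-G1 auxin replicate 1 or 2, 78, 71 and 69 without mid-G1 auxin replicate 1, 2 or 3, 146 without either early-G1 control library, and 401 and 399 without late-G1 control replicate 2 or 3. Auxin over stages gave 55 to 76 without any of 7 libraries (both of early-G1 in either condition, both late-G1 auxin ones and mid-G1 auxin replicate 2) and 212 without late-G1 control replicate 2. Auxin in mid-G1 gave 18, 19 and 67 without mid-G1 control replicate 1, auxin replicate 2 and control replicate 3.

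Other values that changed sign on leaving out 1 library were small and none passed a test. Auxin minus control over stages ran from -0.17 to 0.16 at the Bag6 TSS, -0.0864 to 0.13 at Taf13 and -0.20 to 0.31 at the gene ends. In mid-G1 it ran from -0.62 to 0.0196 at Taf13 and -0.26 to 0.0969 at the gene ends, and mid against early ran from -0.57 to 0.33 at the Bag6 TSS. Body coverage, auxin minus control, ran from -0.269 to 2.95 points at E4f1, -1.11 to 0.583 at Taf13, -4.80 to 0.322 at Bag6 and -5.32 to 8.44 at Prrc2a. Late minus early, it ran from -7.16 to 2.5 at E4f1 and -0.921 to 4.17 at Taf13. TSS peak width, auxin minus control, ran from -232.0 to 357.3 bp at Bag6 and -165.6 to 334.8 at Prrc2a, and summit position from -6.61 to 3.39 bp at E4f1, -5.17 to 4.83 at Taf13 and -11.3 to 16.7 at Prrc2a. The log2 ratio of gene ends to the Bag6 promoter ran from -0.0872 to 0.0556 (auxin minus control).

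Of 1073 alternative values in all, 887 were scored as unchanged. For changes and differences this meant the same direction and side of the threshold, by unadjusted p for the ratios of gene ends to promoters. Counts of called regions are among the 1073 and were scored by closeness to the count of the main fit. Groups of 2 libraries limit every stage comparison, and peak lists hold no signal below the threshold of the caller.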

Other observations

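The Bag6 and Prrc2a windows held further regions that were not described above, of 5 regions in each window with 4 detected in all 14 post-mitotic libraries. The E4f1 window held 13 regions, of which 3 were detected in all 14, and the Taf13 window 3, of which 1 was. Over the 18 lists 124 peaks fell in the E4f1 window, 29 in that of Taf13, 198 in that of Bag6 and 186 in that of Prrc2a, the latter pair sharing peaks.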
